A study of Mus musculus with 67 samples.

Results

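SAG, a small molecule that activates Smoothened, was used in place of Sonic Hedgehog (Shh), and p0-1 neural progenitors (NPs) could be sorted both from cultures without SAG and from cultures given 10 nM. The chromatin of this sorted population was compared between both concentrations in 17 of the 67 samples of the series. The 17 are all the p0-1 samples: 8 from 0 nM (3 on day 4, 3 on day 5 and 2 on day 6) and 9 from 10 nM (3 on each day). All came from HM1, a mouse ES cell line, and all cultures received 100 nM retinoic acid from day 3, when SAG was added to those that had it. The p0-1 gate took SOX2+ PAX6+ NKX6.1- cells, so it pooled the p0 and p1 domains, and it could hold any other PAX6+ cell without NKX6.1. Cells were fixed with formaldehyde, transposed, stained for intracellular transcription factors and sorted (CaTS-ATAC), and replicates were separate differentiations of the line.

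In cells that respond to Shh, Smoothened is released from inhibition by its receptor Patched, and the GLI transcription factors change from repressors to activators. Among their best known targets are genes of the pathway itself: Gli1, an activator, and Ptch1 and Hhip, which bind the ligand and restrain it. In the neural tube Shh is highest ventrally, where it induces factors such as NKX6.1 and OLIG2, while PAX3 and PAX7 mark dorsal progenitors.

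Reads in the elements of the consensus set were between 15763186 and 28424039 per sample, and their mean differed by -536812 between 10 and 0 nM (exact permutation test, two-sided, p = 0.746). The share of reads in promoter elements was 32.2 to 40.2%. One library, 10 nM day 4 replicate 3, stood apart: it had the 40.2%, and its deviation from the mean of all 17 samples correlated with the GC content of the elements at 0.70, against -0.56 to 0.43 in the others. Values are normalized counts, the reads in an element divided by a size factor of the sample, and differences are 10 minus 0 nM on the log2 scale of the deposited values, which is flatter than a fold change at low counts. Elements are named after the gene with the nearest start, which does not show that they act on it.

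The elements nearest the starts of Pax6 and Sox2, whose proteins the gate required, were open at both concentrations. The Pax6 promoter had a lowest, median and highest value of 2782, 3200 and 3864 normalized counts at 0 nM and 2475, 3572 and 4406 at 10 nM, and the groups overlapped. The difference was 0.08 ± 0.07 (SE), adjusted p = 0.478, and for Sox2 0.16 ± 0.08 (SE), adjusted p = 0.326. The element at Olig2, a factor of motor neuron progenitors that do not belong in the gate, was not at 0: it had 302, 367 and 599.6 at 0 nM and 381, 444 and 1011 at 10 nM, a difference of 0.39 ± 0.12 (SE), adjusted p = 0.0920. Summed levels of the marker elements overlapped between the concentrations for p0-1 (4 of 4 genes with an element), p2 (3 of 3), pMN (2 of 2), p3 (2 of 3), floor plate (3 of 3), neuromesodermal progenitors (NMPs, 3 of 3), neurons (3 of 3) and neural crest (2 of 2), with no marker element at 0 in all samples. For p2 the sum was between 3785 and 5047 at 0 nM and between 4557 and 6523 at 10 nM. For pMN it was between 571 and 1210 at 0 nM and between 691 and 2031 at 10 nM. For neurons it was between 1129 and 2305 and between 1202 and 2643. The sums hide single markers. The Nkx6-1 promoter, a p2 marker, passed the test and is described with the ventral factors. The p3 marker Nkx2-9 had a lowest, median and highest value of 435, 539 and 581 at 0 nM and 632, 703 and 839 at 10 nM, without overlap, and did not pass (0.42 ± 0.08 (SE), adjusted p = 0.0112). Nkx6-2, which was summed with the p2 markers but not used in the gate, had 366, 518 and 598.6 at 0 nM and 571, 679 and 1219 at 10 nM. It did not pass either (0.60, adjusted p = 0.0203). The part of other cell types in the results was not tested. In such bulk samples, fewer cells of a type and less accessibility per cell cannot be told apart.

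Few elements passed the thresholds set for a difference between the concentrations. Over the 3 days, 41 of 30977 tested elements (0.132%) passed an adjusted p under 0.01 with a change of over 2-fold. Of these, 6 were higher at 10 nM (0.0194%), at Gli1, Nkx6-1, Rnf220 (2 elements), Brms1l and Nol4l, and 35 were lower (0.113%). At the same adjusted p and any fold, 36 were higher (0.116%) and 129 lower (0.416%), although the median difference of all tested elements was 0.08 and 68.3% of them had a positive difference. With looser limits and any fold, 5694 elements had an unadjusted p under 0.05 and 1211 an adjusted p under 0.05 with limma. In 7 elements (0.0226%) the lowest sample at 10 nM was above the highest at 0 nM, and in 9 (0.0291%) the highest at 10 nM was below the lowest at 0 nM. The fit (limma, with day and replicate number as covariates) rested on the pairing of samples by replicate number: without that covariate 3 elements passed over 2-fold, and with the numbers of the sample descriptions in place of the titles 6 did. Leaving out 1 library gave between 8 elements (without 0 nM day 5 replicate 1, 0 nM day 6 replicate 2 or 10 nM day 5 replicate 3) and 94 (without 10 nM day 4 replicate 1), and of the 41 the Gli1 element was the one that passed the adjusted p in all 29 refits.

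**Figure D1:**
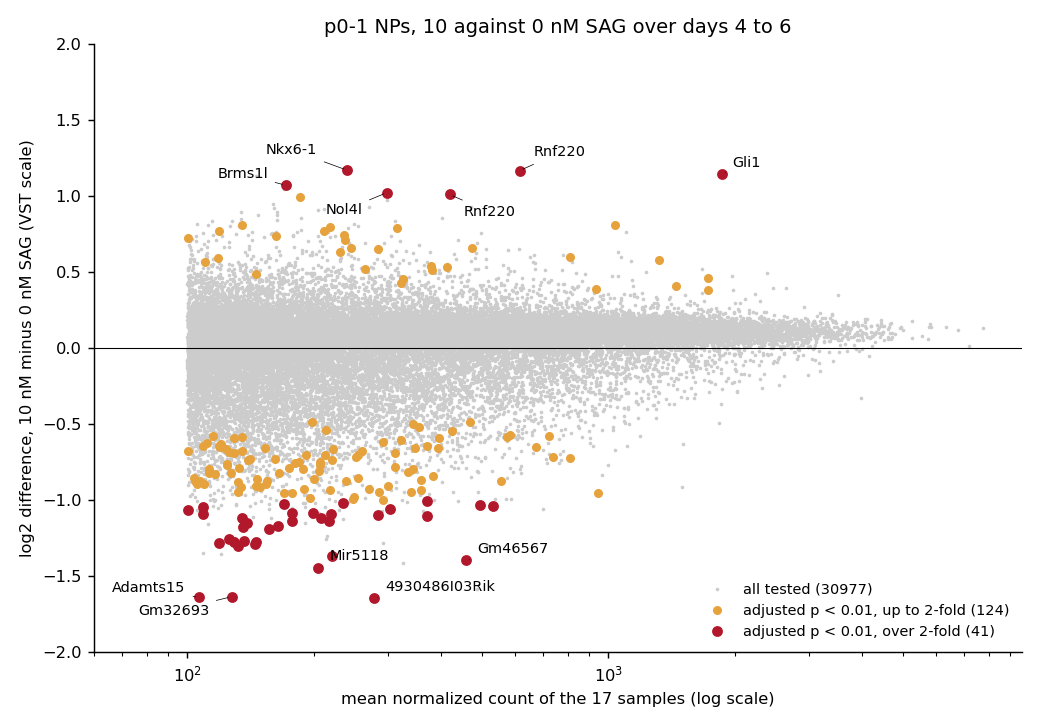
Each point is 1 of the 30977 tested elements, with its mean normalized count over the 17 samples on a log axis and its log2 difference, 10 minus 0 nM, on the y axis (gray, not past the test; orange, adjusted p under 0.01 and up to 2-fold; red, over 2-fold). Gli1 has the highest level of the 41 red points, and 35 of the 41 lie below 0.

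Among the 13 gene lists, the largest share of increases was at the feedback targets, the genes that the pathway induces in its own responding cells. Of their 13 tested elements, 4 rose at any fold (against 0.116% of all tested) and none fell, 12 of 13 differences were positive, and their median was 0.42 against 0.08 for all tested. The 4 were 1 at Gli1 and 3 at Ptch1. At Gli1 the element (chr10:127338779-127342705) was annotated to an intron. With a width of 3927 bp and its center 837 bp from the start, it spans the start. It had 926, 1049 and 1213 on day 4, 937, 1011 and 970 on day 5, and 1211 and 1655 on day 6 at 0 nM. At 10 nM it had 2050, 1999 and 3535 on day 4, 2188, 2107 and 2424 on day 5, and 2548, 3202 and 2571 on day 6. Every sample at 10 nM was above every sample at 0 nM. The difference was 1.15 ± 0.09 (SE, 95% interval 0.95 to 1.34, a 2.21-fold increase on that scale, adjusted p = 6.0e-05), with 1.20, 1.19 and 1.02 on days 4, 5 and 6.

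Ptch1, which encodes the receptor that inhibits Smoothened, had 9 tested elements, of which 8 had a positive difference. The intergenic element 58841 bp downstream of its start (chr13:63503435-63510354) had 88, 78 and 70 on day 4, 74, 66 and 85 on day 5, and 115 and 156 on day 6 at 0 nM. With 10 nM SAG it had 159, 150 and 220 on day 4, 110, 122 and 166 on day 5, and 178, 216 and 236 on day 6. The groups overlapped over all days but not on any 1 day, and the difference was 0.81 ± 0.11 (SE), adjusted p = 0.00264. An element 7090 bp upstream of the start (chr13:63571708-63573943) had a lowest, median and highest value of 242, 326 and 517 at 0 nM and 396, 517 and 762 at 10 nM, and it rose by 0.66 ± 0.10 (SE), adjusted p = 0.00484. An intronic element (chr13:63527348-63531559) rose by 0.63 ± 0.10 (SE), adjusted p = 0.00587. Each of the 3 was higher at 10 nM in 8 of 8 pairs of samples with the same day and replicate number. The fit used the same numbers, so elements that pass it tend to agree across pairs, here and below. At Hhip, which binds the ligand, the element nearest the start, annotated to an intron, did not pass (0.35 ± 0.11 (SE), adjusted p = 0.0766).

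**Figure D2:**
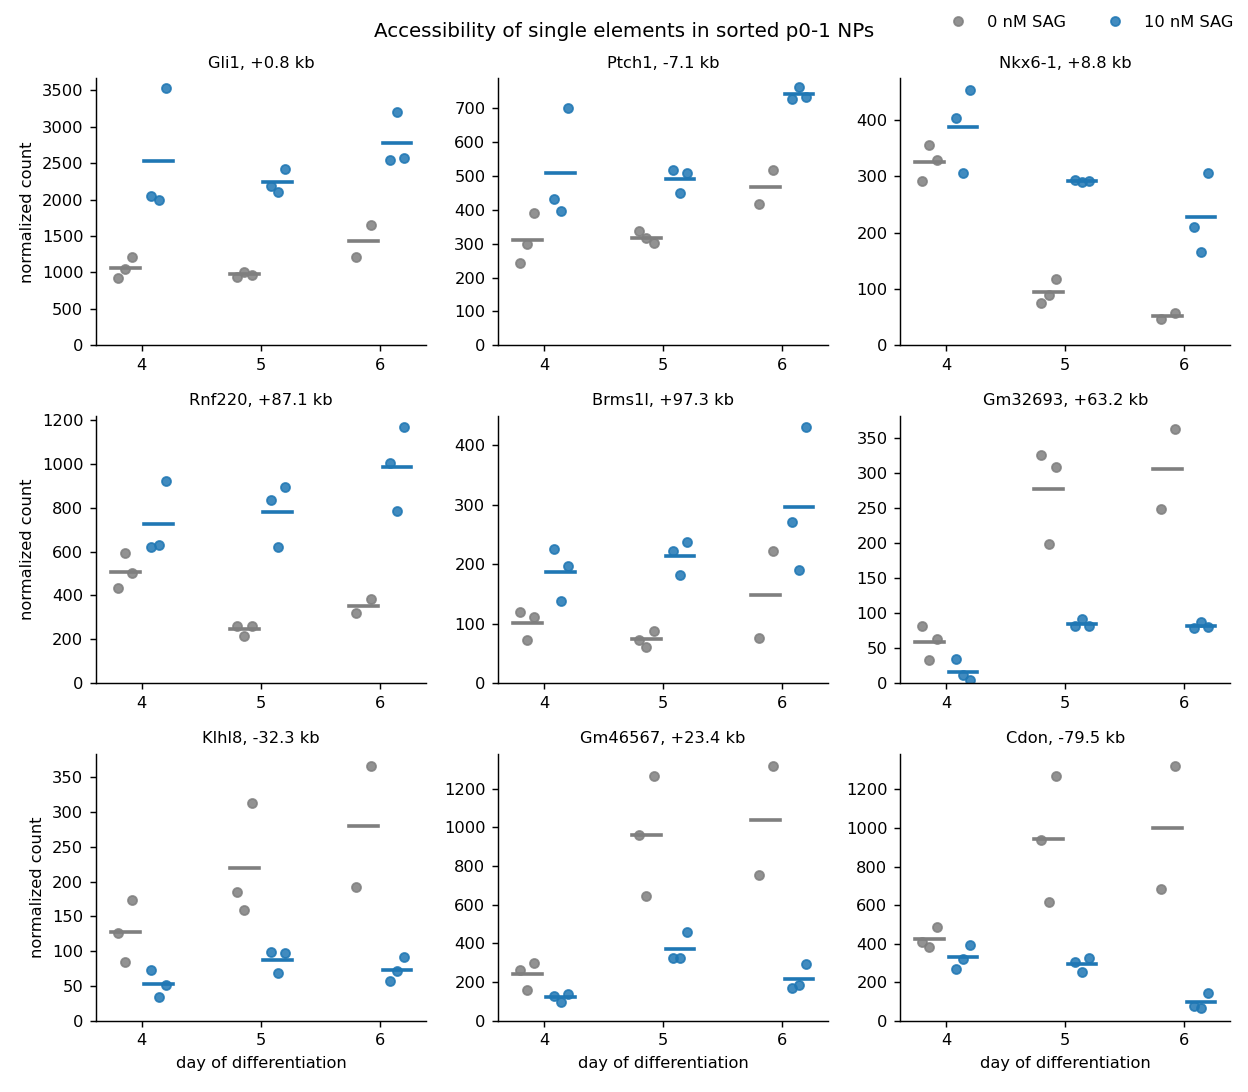
Normalized counts (y axis, from 0) of 9 elements in each of the 17 samples, by day on the x axis, with 0 nM and 10 nM samples side by side and bars at the mean of each group; each panel has its own scale. At Gli1 the 9 samples at 10 nM lie between 1999 and 3535 and the 8 at 0 nM between 926 and 1655.

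Of the elements that rose near Gli1, Ptch1 and Hsd17b3, 4 are shown by the stretch around their match to the core of the GLI binding site, GACCNCCCA, because GLI proteins are the factors through which SAG acts. Each stretch is 89 bp of the mm10 genome (GRCm38, RefSeq), 5′ to 3′ on the strand given, and the capitals mark the match. Hsd17b3 is on the same chromosome as Ptch1 and was not among the feedback targets. Its element lies 86265 bp from the start of that gene and was chosen after its values were seen. It rose by 0.59 ± 0.10 (SE), adjusted p = 0.00860, and passed the adjusted p in 9 of 29 refits.
Gli1 chr10:127339542-127339630, plus strand: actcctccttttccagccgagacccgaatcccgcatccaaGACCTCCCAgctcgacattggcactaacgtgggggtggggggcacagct
Ptch1 chr13:63573425-63573513, minus strand: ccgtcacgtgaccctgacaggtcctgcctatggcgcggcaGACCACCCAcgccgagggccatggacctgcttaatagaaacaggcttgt
Ptch1 chr13:63528734-63528822, plus strand: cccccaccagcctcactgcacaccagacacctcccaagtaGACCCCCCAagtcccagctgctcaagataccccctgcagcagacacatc
Hsd17b3 chr13:64003271-64003359, plus strand: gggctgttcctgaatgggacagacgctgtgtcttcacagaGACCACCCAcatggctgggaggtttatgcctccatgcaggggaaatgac

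The letters GACCNCCCA were found on either strand in 7 of the 36 elements that rose (19.4%), in 2 of the 129 that fell (1.55%) and in 5.69% of all tested elements. The best known form, GACCACCCA, is one of the forms that these letters cover, and stood in 2 of 36 (5.56%), 1 of 129 (0.775%) and 1.75%. These shares were taken over whole elements, whose median width was 1546.5 bp among those that rose, 1006 bp among those that fell and 1354 bp overall. In the central 500 bp alone GACCNCCCA stood in 2 of 36 (5.56%), 1 of 129 (0.775%) and 1.86% of all. The matches shown above, at Gli1, Ptch1 and Hsd17b3, all lie outside that central stretch of their elements. A match is a description of the letters and not a binding site.

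Of the 15 transducers and co-receptors of the pathway (among them Gli2, Gli3, Smo, Sufu, Boc and Cdon), 13 had a tested element, and 0 of their 41 elements passed over all days, with a median difference of 0.05. One of them, upstream of Cdon, is described with the days. Ventral factors, the transcription factors that Shh induces in p2, pMN, p3 or floor plate, had 54 tested elements: 3 rose (against 0.116% of all tested), none fell, 44 differences (81.5%, against 68.3% of all tested) were positive and their median was 0.26 (0.08 for all). All 3 were at the NKX6 genes, which are expressed just ventral to the p0 and p1 domains and whose protein NKX6.1 the gate excluded.

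At Nkx6-1 an intergenic element 8798 bp downstream of the start (chr5:101655125-101656702) had 292, 356 and 328 on day 4, 75, 90 and 117 on day 5, and 46 and 57 on day 6 at 0 nM. At 10 nM it had 403, 306 and 453 on day 4, 293, 289 and 291 on day 5, and 210, 165 and 305 on day 6. The groups did not overlap on days 5 and 6, and on day 4 they did. It rose by 1.17 ± 0.21 (SE), adjusted p = 0.00947, with 0.23, 1.53 and 1.92 on days 4, 5 and 6, but it passed the adjusted p in 8 of 29 refits only. The promoter of Nkx6-1 (chr5:101662711-101666976) had 1114, 1191 and 1467 at 0 nM and 1460, 1559 and 2208 at 10 nM and rose by 0.41 ± 0.07 (SE), adjusted p = 0.00989. In all, 13 of 14 tested elements of Nkx6-1 had a positive difference, with a median of 0.49. An element 54070 bp downstream of the start of Nkx6-2, in an intron (chr7:139528292-139529162), rose by 0.38 ± 0.07 (SE), adjusted p = 0.00911, and 6 of 6 elements of that gene had a positive difference, as 68.3% of all tested did. The Nkx6-1 promoter passed in 9 of 28 refits and the Nkx6-2 element in 7 of 29, so each of the 3 calls at ventral factors was lost in most refits. The Nkx6-2 element holds the same core letters as that at Gli1:
Nkx6-2 chr7:139528560-139528648, plus strand: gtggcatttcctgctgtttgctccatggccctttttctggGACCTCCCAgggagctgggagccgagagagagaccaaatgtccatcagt

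Several increases lay at Rnf220, a ubiquitin ligase gene, and its neighbour Tmem53. These genes were chosen for a joint count after their values were seen. Their shares therefore describe the locus and cannot show an excess over all tested elements. Of their 30 annotated elements 15 were tested, and 7 rose at any fold (0.116% of all tested did). All 15 had a positive difference (68.3% of all tested had one), with a median of 0.48 and a range of 0.11 to 1.17. The most changed lies in an intron of Rnf220 (chr4:117409182-117410633), with 432, 594 and 502 on day 4, 259, 217 and 259 on day 5, and 318 and 382 on day 6 at 0 nM. At 10 nM the values were 620, 632 and 924 on day 4, 835, 619 and 896 on day 5, and 1007, 787 and 1171 on day 6. The groups did not overlap, and it rose by 1.17 ± 0.16 (SE), adjusted p = 0.00352. Another intronic element, chr4:117404723-117406892, rose by 1.01 ± 0.17 (SE), adjusted p = 0.00818. It passed the adjusted p in 10 of 29 refits, and the most changed element in 23. Elements annotated to Tmem53 rose by 0.80 ± 0.12 and 0.77 ± 0.12 (adjusted p = 0.00431 and 0.00581).

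Outside these genes, an intergenic element 97282 bp from the start of Brms1l, which encodes a subunit of a histone deacetylase complex, had 60.8, 81.4 and 222 at 0 nM and 138, 222 and 429.9 at 10 nM and rose by 1.07 ± 0.13 (SE), adjusted p = 0.00204. One in an intron of Nol4l (chr2:153496624-153498030) had 98.9, 119 and 347 and 114, 316 and 843 and rose by 1.02 ± 0.17 (SE), adjusted p = 0.00773. It passed the adjusted p in 11 of 29 refits, and the Brms1l element in 25. Further elements that rose by less than 2-fold were chosen for mention after their values were seen. Among them were elements near the Notch targets Hey1 (0.54) and Nrarp (0.51), the ligand gene Wnt5b (0.73), the heparan sulfate proteoglycan gene Sdc3 (0.71), Ezh1, a methyltransferase of Polycomb repressive complex (0.79), Nfkbia, the inhibitor of NF-κB (0.77), and the netrin receptor gene Unc5a (0.57). At Unc5a the samples at 0 nM had 70.8, 85.5 and 100.1 and those at 10 nM 116, 125 and 183, without overlap.

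Decreases were more numerous than increases in the fit with the replicate number, and elements of both directions lay far from gene starts. Without that covariate 2 elements were higher and 1 lower over 2-fold, and 4 higher and 2 lower at any fold. After correction for GC content and level 217 were higher and 383 lower at any fold, against 36 and 129 without it. Of the 35 elements that fell over 2-fold, 22 were intergenic, 12 intronic and 0 at a promoter, a class that made up 22.4% of all tested elements. Their median distance to the nearest start was 44808 bp (7938 bp for all), their median width 931 bp (1354 bp) and their median GC content 45.3% (52.8%). The 6 elements that rose over 2-fold also had 0 at a promoter, and their median distance was 59894.5 bp. Of the 36 that rose at any fold 5.56% were at a promoter, and the median distance was 30546 bp. All 35 were lower at 10 nM in 8 of 8 pairs. They were chosen by a fit with the same replicate numbers, which favors such agreement, so it is no separate support. Of the 30977 tested elements, 2833 were the same way in all pairs, counting both directions. No gene had 3 or more elements that passed over 2-fold in either direction.

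The element with the largest decrease, 404701 bp from 4930486I03Rik (chr1:19951197-19952309), had 214, 201 and 403 on day 4, 536, 419 and 823 on day 5, and 304 and 673 on day 6 at 0 nM. At 10 nM it had 102, 128 and 141 on day 4, 168, 239 and 209 on day 5, and 41, 38 and 84 on day 6. It fell by 1.65 ± 0.22 (SE, adjusted p = 0.00274), and the groups overlapped over the days but not within one. The element near the gene model Gm32693 (chr3:139717183-139717880) had 81, 33 and 63 on day 4, 326, 198 and 308 on day 5, and 248 and 363 on day 6 at 0 nM and 34, 11 and 4 on day 4, 81, 91 and 81 on day 5, and 79, 87 and 80 on day 6 at 10 nM. Its difference was -1.64 ± 0.19 (SE), adjusted p = 0.00107, and it passed in 27 of 29 refits. The one near Adamts15, a secreted metalloprotease gene, fell by 1.64 ± 0.29 (SE, adjusted p = 0.00947), but was at 7.20 and 4.71 in the lowest samples at 0 and 10 nM and passed in 7 refits.

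Near the gene model Gm46567 (chr16:29835438-29838423) the element had 265, 161 and 299 on day 4, 963, 645 and 1268 on day 5, and 755 and 1319 on day 6 at 0 nM. The 10 nM values were 129, 96 and 141 on day 4, 325, 326 and 458 on day 5, and 169, 186 and 296 on day 6. The groups were apart on each day, and the difference was -1.40 ± 0.16 (SE), adjusted p = 0.00107. An element 32266 bp from Klhl8, an adaptor of a ubiquitin ligase, had 84.3, 179.5 and 367 at 0 nM and 34.3, 72.2 and 99.1 at 10 nM and changed by -1.30 ± 0.14 (SE), adjusted p = 0.00107. Both passed in 26 of 29 refits. Of the 35, the element in an intron of Gm48908 (chr2:50366300-50367230) was the one whose groups did not overlap over all 17 samples. It had 182, 145 and 217 on day 4, 227, 223 and 312 on day 5, and 232 and 392 on day 6 at 0 nM and 114, 116 and 117 on day 4, 114, 130 and 120 on day 5, and 63, 89 and 98 on day 6 at 10 nM (-1.03 ± 0.15 (SE), adjusted p = 0.00380). The others of the 12 largest decreases lay near Mir5118 (-1.44), A230001M10Rik (-1.37), Kng2 (-1.29), Ly75 (-1.28), the potassium channel gene Kcnk2 (-1.28), Sem1 (-1.27) and Mir3964 (-1.27).

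A motif noticed in these elements, and chosen after their values were seen, was GTTGCTA, part of the site that RFX transcription factors bind. In the central 500 bp and on either strand it was found in 6 of the 35 elements (17.1%), in 28 of the 129 that fell at any fold (21.7%) and in 2 of the 36 that rose (5.56%). It stood in 5.05% of all tested elements and 5.19% of the 24032 outside promoters. Of the 6, 5 are shown with 40 bp on each side, from mm10, the capitals marking the letters.
Gm46567 chr16:29836867-29836953, minus strand: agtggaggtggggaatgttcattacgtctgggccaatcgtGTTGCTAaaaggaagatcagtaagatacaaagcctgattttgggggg
Col1a2 chr6:4550315-4550401, minus strand: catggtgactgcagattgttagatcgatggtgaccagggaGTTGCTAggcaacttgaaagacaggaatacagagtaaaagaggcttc
Ttc8 chr12:98916747-98916833, minus strand: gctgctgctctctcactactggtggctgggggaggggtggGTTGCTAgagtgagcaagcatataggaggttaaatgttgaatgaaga
Slf2 chr19:44929367-44929453, minus strand: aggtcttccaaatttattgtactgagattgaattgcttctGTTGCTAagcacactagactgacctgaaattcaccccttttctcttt
Ifi211 chr1:173923031-173923117, minus strand: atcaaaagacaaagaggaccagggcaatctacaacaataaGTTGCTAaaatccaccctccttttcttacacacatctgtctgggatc

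The elements of the Col1a2 and Ttc8 stretches, a collagen gene and a ciliary Bardet-Biedl gene, changed by -1.09 ± 0.19 (SE), adjusted p = 0.00898, and by -1.09 ± 0.16 (SE), adjusted p = 0.00380. Other motifs were also searched in the central 500 bp. The SOX motif ACAATG stood in 38.9% of the 36 that rose, 37.2% of the 129 that fell and 23.0% of all, and the homeodomain motif TAATTA in 11.1%, 15.5% and 8.52%. An E-box, CAGATG, stood in 19.4%, 38.8% and 28.0%.

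Genes of dorsal and intermediate progenitors had 91 tested elements, of which 0 rose and 1 fell, with a median difference of 0.01. The 1 that fell lies in an intron of Pax3 (chr1:78139054-78142319), a transcription factor gene of dorsal progenitors. It had 976, 643 and 1176 on day 4, 1064, 902 and 1032 on day 5, and 646 and 1025 on day 6 at 0 nM. At 10 nM it had 627, 434 and 441 on day 4, 751, 744 and 727 on day 5, and 423, 366 and 566 on day 6. The difference was -0.71 ± 0.12 (SE), adjusted p = 0.00623, lower in 8 of 8 pairs though the groups overlapped, and 9 of 9 tested elements of Pax3 had a negative difference (median -0.23). At Dbx1, a factor of p0, the element nearest the start had a median of 2069 at 0 nM and 2140 at 10 nM (-0.28, adjusted p = 0.138).

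Over all days, no element passed in the other lists. These were pan-neural progenitor factors (0 of 41, median 0.15), neurogenic and neuronal genes (0 of 64, 0.12), NMP and mesoderm genes (0 of 23, 0.06), neural crest genes (0 of 17, 0.14), pluripotency genes (0 of 6, 0.10), genes of the retinoic acid pathway (0 of 41, 0.13), BMP response genes (0 of 40, 0.05), Wnt response genes (0 of 45, 0.12) and cyclins with Mycn (0 of 30, 0.16). On day 6 alone, 3 elements of BMP response genes, 1 of NMP and mesoderm genes, 1 of neurogenic and neuronal genes and 1 of the cyclins with Mycn passed over 2-fold, and on day 5 1 of NMP and mesoderm genes did. Of the elements with the smallest p in each of these 9 lists, the largest changes were at the Wnt ligand gene Wnt3a (-1.30 ± 0.27 (SE), adjusted p = 0.0169, and -2.23, adjusted p = 0.00117, on day 6) and near Bambi, a BMP pseudoreceptor gene (-0.80 ± 0.16 (SE), adjusted p = 0.0147, and -1.48, adjusted p = 0.00261, on day 6). The others included one that spans the start of Ccnd2, a cyclin gene (0.49 ± 0.09 (SE), adjusted p = 0.0118), and one at Elavl3, which encodes a neuronal RNA-binding protein (0.52 ± 0.10 (SE), adjusted p = 0.0141). They also included one at the Notch target Hes5 (0.39 ± 0.10 (SE), adjusted p = 0.0423) and one near the Wnt ligand gene Wnt3 (-0.52 ± 0.12 (SE), adjusted p = 0.0287).

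Day by day, with the spread shared over the 17 samples, 0 elements passed over 2-fold on day 4, 23 on day 5 and 377 on day 6. On day 5, 14 were higher (0.0452%) and 9 lower (0.0291%). On day 6, 130 were higher (0.42%) and 247 lower (0.797%). On day 4, 5557 elements had an unadjusted p under 0.05 and 2 an adjusted p under 0.05 with limma, and with the replicate numbers taken as pairs within each day 239 passed. The median difference of all tested elements was 0.10, 0.01 and 0.11 on the 3 days. The median SE was 0.18 on days 4 and 5 and 0.20 on day 6, where 0 nM had 2 samples. Of the 23 on day 5, 20 (87.0%) were among the 377 of day 6 (5.31% of them), all in the same direction. The day 4 count was 1590 without 10 nM day 4 replicate 1 and 0 without any other sample. The day 5 count was 0 without 0 nM day 5 replicate 1 or 3 or 10 nM day 5 replicate 1 or 3, 83 without 10 nM day 4 replicate 1 and 117 without 10 nM day 4 replicate 3. It was 22 to 26 without 0 nM day 6 replicate 2 or 3, 10 nM day 4 replicate 2 or 10 nM day 6 replicate 1, and 2 to 14 without any of the rest. The day 6 count was 2 without 0 nM day 6 replicate 3, 82 without 10 nM day 6 replicate 2, 134 without 0 nM day 6 replicate 2, 677 without 10 nM day 4 replicate 1 and 1013 without 10 nM day 4 replicate 3. It was within 1.5 times of 377 without 0 nM day 4 replicate 2 or 3, 10 nM day 4 replicate 2 or 10 nM day 6 replicate 3, and 154 to 250 without any of the rest.

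The median difference of the 35 elements that fell was -0.93 on day 4, -1.07 on day 5 and -1.68 on day 6. Whether the effect itself differed between days was tested with limma, and 7 of 30977 elements passed an adjusted p under 0.01 (0.0226%). The one with the smallest p lies 79525 bp upstream of Cdon (chr9:35371997-35373105), which encodes a co-receptor of the Hedgehog ligand. It had 408, 381 and 488 on day 4, 937, 617 and 1270 on day 5, and 683 and 1321 on day 6 at 0 nM. The 10 nM samples had 271, 322 and 394 on day 4, 305, 252 and 328 on day 5, and 79, 66 and 144 on day 6. The groups were apart on days 5 and 6, and the differences were -0.37, -1.58 and -3.17 on days 4, 5 and 6 (SE 0.18, 0.18 and 0.20, adjusted p of the difference between days = 0.00412).

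An element 386113 bp from Nr2f2, a nuclear receptor gene (chr7:70752379-70753340), had differences of 0.05, -1.48 and -2.16 (adjusted p = 0.00412). In the other 5 the difference was negative on day 4 and positive on days 5 and 6. At 4930502A04Rik it was -0.76, 0.70 and 1.51, at Nmnat2, an enzyme of NAD synthesis, -0.49, 0.93 and 1.26, and at Dnajc1, a chaperone gene, -0.43, 1.16 and 1.53 (adjusted p = 0.00494, 0.00494 and 0.00673). The last ones were near 1600027J07Rik and Cops8 (adjusted p = 0.00724 for both). Without the replicate number as a covariate none of the 7 passed, and without 10 nM day 4 replicate 1 the count was 1764. It was 16 without 10 nM day 4 replicate 3 and 0 to 4 without any other sample.

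**Figure D3:**
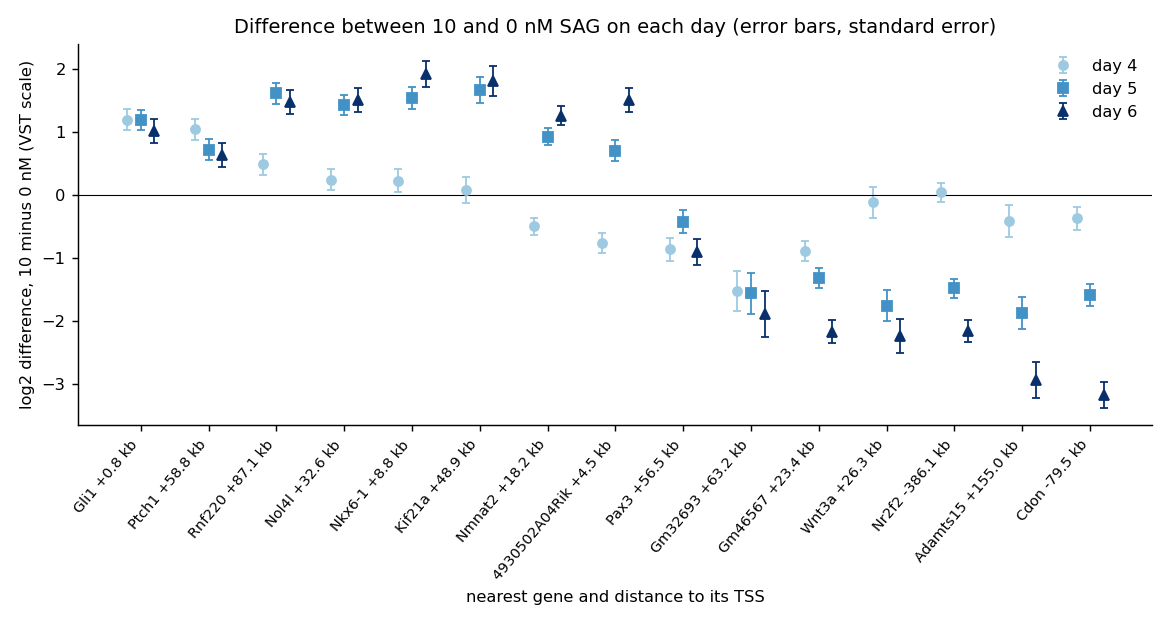
Log2 difference, 10 minus 0 nM (y axis), of named elements on days 4, 5 and 6 (x axis), with the standard error of each as a bar. The Gli1 element stays between 1.02 and 1.20, while the Cdon element goes from -0.37 on day 4 to -3.17 on day 6.

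The elements that differed were then followed in the cell types the comparison did not use. The 36 elements that rose had a median over elements of 246, 181 and 221 normalized counts on days 4, 5 and 6 in p0-1 at 0 nM and of 335, 318 and 405 at 10 nM. In p2 NPs at 10 nM, the more ventral cells of the same cultures, the medians were 366, 503 and 648, and in pMN at 100 nM 610, 632 and 810. In NMPs on day 3 the median was 178. The 129 elements that fell went the other way. Their medians were 147, 281 and 350 in p0-1 at 0 nM and 83.6, 158 and 124 at 10 nM. They were 115, 123 and 99.7 in p2 at 10 nM, 86.7, 103 and 105 in pMN at 100 nM, and 67.0, 136 and 170 in p3 at 100 nM. In NMPs, before neural induction, they were at 15.8. The p0-1 values are those by which the elements were chosen, and the others are given without a test.

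**Figure D4:**
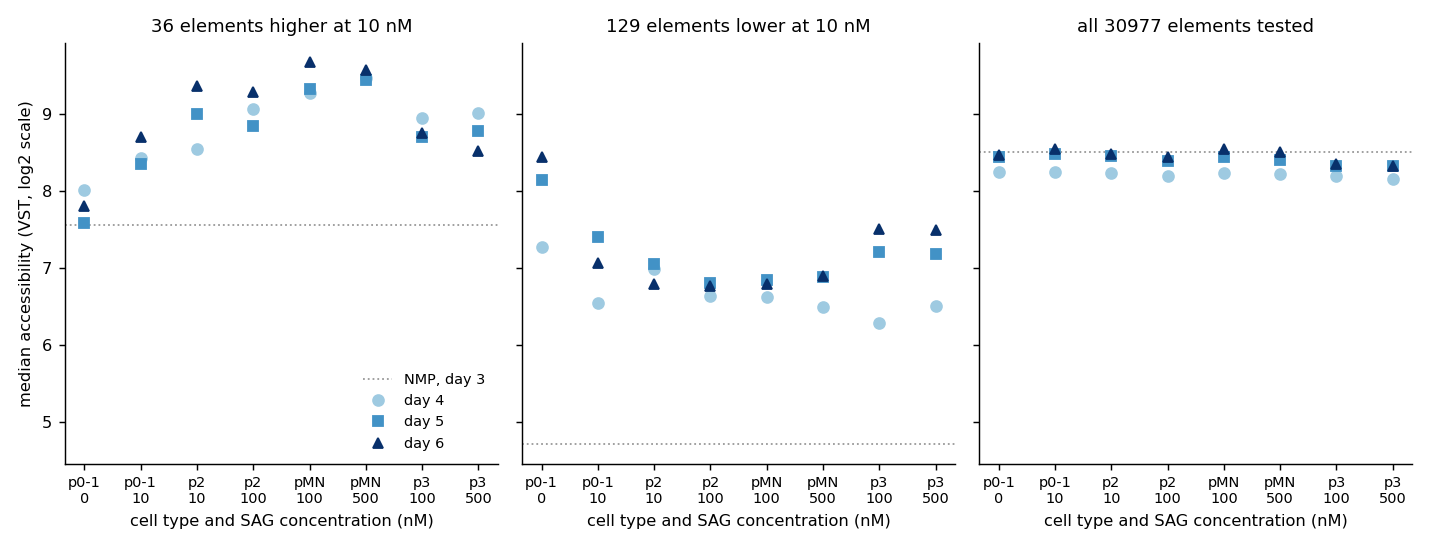
Median over elements of the VST value (log2 scale, y axis) of the 36 elements that rose, the 129 that fell and all 30977 tested, in each cell type and SAG concentration (x axis), with a symbol for each day and a dotted line for NMPs on day 3. From p0-1 at 0 nM to p0-1 at 10 nM and p2 at 10 nM, the elements that rose have medians of 7.81, 8.70 and 9.37 on day 6, and those that fell 8.44, 7.07 and 6.79.

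The next step in concentration, 10 to 100 nM, was measured in p2, in 18 samples that the p0-1 comparison did not use. Those at 10 nM came from the same cultures as the p0-1 samples at 10 nM. In p2, 531 of 31831 elements rose (1.67%) and 2099 fell (6.59%) at any fold. Of the 36 elements that rose in p0-1, all were tested in p2: 12 rose, 1 fell and 27 had a positive difference (75.0%), where 39.3% of all elements tested in both did. Of the 129 that fell in p0-1, 70 were tested in p2: 11 fell, 0 rose and 56 had a negative difference (80.0%, against 60.7%). At Brms1l the step in p2 was 0.96 ± 0.08 (adjusted p = 3.9e-06), at Ptch1 0.81 ± 0.13 for the element 58841 bp downstream (adjusted p = 4.1e-04), and at Hsd17b3 0.72 ± 0.10 (adjusted p = 9.1e-05). The Pax3 element also fell in p2, by 0.48 ± 0.08 (SE, adjusted p = 2.6e-04).

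The difference between both steps was tested with limma over the 35 samples, and 150 of 31425 elements passed an adjusted p under 0.01 with a difference above 1 (0.477%). The Gli1 element had a step of 0.31 ± 0.05 in p2 (adjusted p = 2.5e-04), and the p0-1 step exceeded it by 0.84 ± 0.10 (adjusted p = 1.4e-04), less than the 1 required. Of the 150, the smallest p were at Tmem53 (chr4:117323245-117325465), whose step was -0.37 in p2 and which exceeded it in p0-1 by 1.13 ± 0.15, and at Gm46567, which had 0.02 in p2 and a difference of -1.41 ± 0.19. The Rnf220 element that rose most in p0-1 had 0.01 in p2, and the difference was 1.15 ± 0.17. Their adjusted p were 0.00037, 0.00037 and 0.0011. The step of the 3 Ptch1 elements differed between p0-1 and p2 by 0.01 ± 0.18, 0.12 ± 0.13 and 0.30 ± 0.12, with adjusted p of 0.987, 0.585 and 0.126. Without the replicate number as a covariate 18 elements passed in place of 150.

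**Figure D5:**
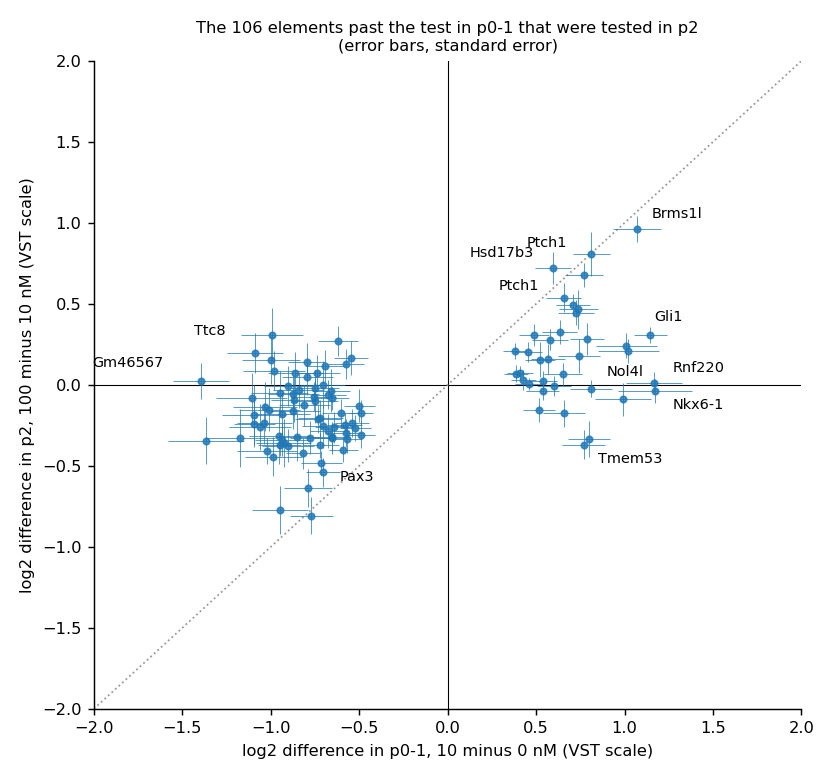
Each point is 1 of the 106 elements past the test at any fold in p0-1 that were also tested in p2, with its log2 difference from 0 to 10 nM in p0-1 on the x axis and from 10 to 100 nM in p2 on the y axis; bars are standard errors and the dotted line marks equal steps. Brms1l and Ptch1 lie near the line, while the labelled Rnf220, Nkx6-1 and Gm46567 elements lie between -0.04 and 0.02 in p2.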

How the data were processed

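Accessibility was measured by CaTS-ATAC. The authors processed the reads with the nf-core atacseq pipeline against mm10, called peaks with MACS, merged them into consensus elements and annotated these with HOMER. The authors deposited 111638 elements as variance-stabilized (VST) values, made by them with DESeq2 on a log2 scale from counts divided by size factors. Undoing the transformation gave whole numbers, within 0.001 of a read, for 100% of the values under 1000 reads in all 67 samples, so reads and normalized counts could be given.

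The 17 samples were grouped by their labels. Models with day and replicate number as covariates were fitted to the VST values with limma 3.58.1 (R 4.3.3), with a variance trend and two-sided tests. An element was tested where its normalized counts averaged above 100 in the samples fitted, and p-values were Benjamini-Hochberg adjusted over all of these. Replicate numbers are those of the sample titles. The labels do not say what a number shares, and the pairing was taken from the data. After removal of group means, the 8 pairs of samples with the same day and number correlated across elements at 0.380 to 0.858. The 16 other pairs correlated at -0.858 to 0.643. Removing group means makes the deviations of a group sum to 0, so high values for some pairs force low values for others. All pairs lay within a day, so they cannot show that a number is shared across days, as the fit assumes. Replicates were separate differentiations of 1 line. The p-values measure the spread left between samples after day and replicate number are taken out, with samples of different days treated as independent.

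In simulated data of 30977 elements made for the comparison over all days, 87 of 100 elements changed 2.5-fold and 100 of 100 changed 4-fold were recovered, with 0 false calls. The simulation had the same day and replicate structure as the fit, with no outlying library and no wrong pairing. It therefore does not give the rate of false calls in the real samples. Alternatives covered the replicate block, the filter, the scale, the trend, voom run on recovered counts, centering, GC content, thresholds, days and each sample left out. Those chosen after seeing the data were an adjusted p under 0.05, elements outside promoters, samples numbered 1 and 2, and the counts at any fold.

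Elements named were the 12 largest increases and decreases among those past 2-fold, the element with the smallest p in each of 13 gene lists, those nearest the starts of Hedgehog feedback targets and sort markers, and those with the smallest p for a difference between days (5) and between p0-1 and p2 (3). Genes with 3 or more elements past 2-fold would have been named too. The comparison, the lists and the motifs were chosen with earlier results of these data known. Some listed genes and a sequence are not reported here, and the counts of a list cover each of its genes with a tested element. Sequences came from RefSeq's GRCm38, which held all 111638 elements. Python 3.11.15 with pandas 2.3.3 and scipy 1.17.1 made the tables.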

Additional observations from a re-analysis of the deposited data

Results flagged for a closer look

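Of 88 groups of values tested for a sample far from the others, 4 had one, and chance alone flags about 5% of such groups. The Gli1 element reached 1655 normalized counts in 0 nM day 6 replicate 3, against at most 1213 in the other samples at 0 nM. The other outlying values were all the highest at 10 nM and all in day 4 replicate 3, the library with the largest share of reads in promoters. They were 1809 at Klf4, a pluripotency factor, 2208 at the Nkx6-1 promoter and 497 at Wnt3a, a Wnt ligand gene. The Klf4 element did not pass the comparison of the concentrations with limma (0.12 ± 0.10, adjusted p = 0.478).

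The effect of 10 nM differed between days with limma at 5 of the named elements, given as day 6 minus day 4 on the log2 scale. The change was -2.80 at Cdon and -2.21 at Nr2f2, where the effect went down, and 2.27 at 4930502A04Rik, 1.75 at Nmnat2 and 1.96 at Dnajc1, where it went from negative to positive.

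The step from 0 to 10 nM in p0-1 differed from that from 10 to 100 nM in p2 by 1.13 at Tmem53, by 1.15 at Rnf220 and by -1.41 at Gm46567. All were tested with limma, with samples of the same cultures treated as independent.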

How the results depend on the processing

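No named element turned its direction past the threshold under any alternative tried, and the Gli1 element passed the adjusted p in all 29 refits. Counts moved far more. The count over all days was 41 past 2-fold and 165 at any fold. Without the replicate block it was 3 and 6, with the block taken from the numbers of the descriptions 6 and 10, and with the block within each day 23 past 2-fold. It was 1 and 1 on days 4 and 5 only, 1 and 1 with samples numbered 1 and 2 only, 166 and 824 without the filter on the mean, and 142 and 457 with voom on the recovered reads. At any fold it was 109 on the log2 of normalized counts plus 1 and 600 after correction for GC content and level. With a fold change above 1.5 it was 142, and with an adjusted p under 0.05 it was 85 past 2-fold. The days 4, 5 and 6 had 0, 23 and 377, without the block 0, 0 and 23, and with the block within each day 239, 160 and 931. The difference between days had 7, without the block 0 and with the block within each day 1682. The step in p2 had 32 past 2-fold and without the block 21, and the difference of the steps had 150 and without the block 18. The cause was not tested.

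Leaving out each sample in turn gave 8 to 94 over all days, 11 to 365 at any fold, 0 to 1590 on day 4, 0 to 117 on day 5, 2 to 1013 on day 6, 0 to 1764 for the difference between days, 18 to 63 for p2 and 64 to 267 for the difference of the steps. Over all days past 2-fold, the count stayed within 1.5 times of 41 without 0 nM day 4 replicate 2 or 3, 10 nM day 4 replicate 3 or 10 nM day 5 replicate 2, and moved beyond it without any other sample. It was 73 without 10 nM day 4 replicate 2 and 94 without 10 nM day 4 replicate 1, and 8 to 27 without the others.

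The 8 samples at 0 nM include 2 on day 6. Elements averaging under 100 normalized counts were left out by the filter, and without it 158 of the 166 elements past 2-fold were lower at 10 nM.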

Other observations

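Elements near further genes passed over 2-fold on day 6 with limma but not over all days, and those named here were chosen after their values were seen. At 4 elements annotated to Mir5120, all on chromosome 4, the differences on day 6 were 1.79, 1.10, 1.28 and 1.12 (adjusted p = 5.4e-04, 0.00794, 0.00231 and 0.00554). Elements at Kif21a, a kinesin gene, Pik3r1, the regulatory subunit of a lipid kinase, and Nell2, which encodes a secreted guidance factor, had 1.81, 1.89 and 1.76. Near Efnb2, an ephrin ligand gene, the difference was -2.65, and in an intron of Wnt3a it was -2.23, after -0.12 on day 4.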
